A study of Homo sapiens with 12 samples.

Results

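Plasma membrane and lysosomal carriers decide which amino acids a cell can take up, exchange or release. The set described here is 56 genes of the 7 solute carrier families SLC1, SLC3, SLC6, SLC7, SLC36, SLC38 and SLC43, chosen by gene symbol among 55737 rows per table, without SLC1A5, SLC38A2 and SLC7A11. Transcripts were measured in the human skin fibroblast line HCA2 (MJ90), and all cells carried a hairpin that doxycycline switches on. The 4 groups of 3 libraries were labelled shFbxo22 senescent, shFbxo22 young, shLuc senescent and shLuc young. shFbxo22 targets FBXO22, the substrate-binding part of a ubiquitin ligase, and shLuc targets luciferase and served as the control. Senescent cells had received 10 Gy of ionizing radiation, and young cells were at low passage. The study asked what the hairpin does in young and senescent fibroblasts, and its 4 deposited tables set senescent against young cells within each hairpin and shFbxo22 against shLuc within each state.

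Most of these carriers fall into a few mechanistic classes. SLC1 proteins couple glutamate or small neutral amino acids to ion gradients, and SLC38 and many SLC6 proteins couple neutral amino acids to sodium. SLC7 light chains bind an SLC3 heavy chain by a disulfide bond and exchange one amino acid for another, while the cationic SLC7 proteins carry arginine and lysine without a heavy chain. SLC36A1 moves amino acids with protons, often out of the lysosome, and SLC43A1 and SLC43A2 let large neutral amino acids pass down their gradient. Several of these genes are known targets of ATF4, the transcription factor of the amino acid shortage response. It binds with a C/EBP partner to C/EBP-ATF response elements (CARE).

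The deposited tables hold for each gene a base mean (normalized counts averaged over 6 libraries by the authors), a log2 fold change with its standard error (SE), and a Wald test with an adjusted p, and no value per library. Group means given below were therefore reconstructed from a base mean and its fold change in the authors' deposited tables, averaged over the 2 tables in which a group occurs, and carry no error of their own. A gene was called at an adjusted p under 0.05, taken over all genes of a table. The base means of a table summed to between 21875579 and 21895679 normalized counts, and the depth of each library is unknown. FBXO22 itself averaged 746 normalized counts in the libraries labelled shFbxo22 senescent and 254 in shFbxo22 young libraries, against 371 in shLuc senescent and 438 in shLuc young libraries. Read this way the targeted transcript went against the label in senescent cells, at a log2 fold change of 1.01 ± 0.12 for shFbxo22 over shLuc, taken from the authors' deposited table with the sign turned. As deposited the value has the opposite sign, which would go with the label. The sign of that table and of the shFbxo22 senescence table was turned because only then do the base means of all 4 tables meet, and every direction given below for the libraries labelled shFbxo22 senescent rests on that turn. It holds for their label and not for less FBXO22 transcript. The 10 fibroblast markers examined were detected in every group, and their summed means were 613664 in the libraries labelled shFbxo22 senescent, 655010 in shFbxo22 young, 579635 in shLuc senescent and 571122 in shLuc young libraries. Most of each sum came from COL1A2, VIM and COL1A1, and single markers shifted. In that order of groups DCN was at 20896, 27136, 32662 and 6275, PDGFRA at 2854, 5236, 8759 and 3583, and THY1 at 16497, 22762, 11568 and 20661. Of the 10, 5 rose and 3 fell in shLuc senescence, where 42.6% of all tested genes were called. The keratinocyte markers KRT5, KRT14 and KRT1, the melanocyte markers MLANA and TYR, the endothelial marker CDH5 and the T cell marker CD3E had base means of at most 1 in every table. Summed in the same order of groups, the 5 keratinocyte markers were at 86.6, 71.6, 131 and 239 normalized counts, the 4 melanocyte markers at 28.2, 37.2, 35.1 and 25.7, and the 4 immune markers at 64.9, 60.9, 52.4 and 45.7. Most of the keratinocyte counts came from CDH1, at 36.5, 31.1, 87.2 and 198, and KRT10, at 48.9, 39.3, 42.2 and 39.6. The melanocyte marker PMEL was at 27.5, 36.7, 33.2 and 24.8. The 3 endothelial markers examined were at 36.8, 149, 249.9 and 515. Of these, the receptor gene KDR was at 4.90, 83.6, 181 and 488 and VWF, the von Willebrand factor gene, at 31.9, 65.4, 68.9 and 27.3. The part of these markers in the results below was not tested. In bulk RNA, fewer cells of a type and less RNA per cell cannot be told apart.

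Of the 56 members, 33 had an adjusted p in all 4 tables, 2 in some of them and 21 in none. The 21 untested members had base means under 2 in every table, among them SLC3A1, the renal heavy chain, and SLC6A19, the main neutral amino acid carrier of gut and kidney. SLC6A14 and SLC7A10 had no count in any table. The 29 members with an adjusted p in all tables and an average base mean of at least 50 are described one by one. For these, the 2 estimates of a group mean differed by at most 0.19 on the log2 scale (SLC1A1), and by at most 0.08 for the other 28. Per kb of merged exon (GENCODE release 29 lengths), SLC3A2 had the highest level of the 56 in every group. It stood at 1920 normalized counts per kb in the libraries labelled shFbxo22 senescent, 1725 in shFbxo22 young, 3415 in shLuc senescent and 1534 in shLuc young libraries. Next by level per kb were SLC7A8 at 990 in the libraries labelled shFbxo22 senescent and 802 in shLuc senescent libraries, and SLC7A1 at 570 in shFbxo22 young and 960 in shLuc young libraries.

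**Figure D1:**
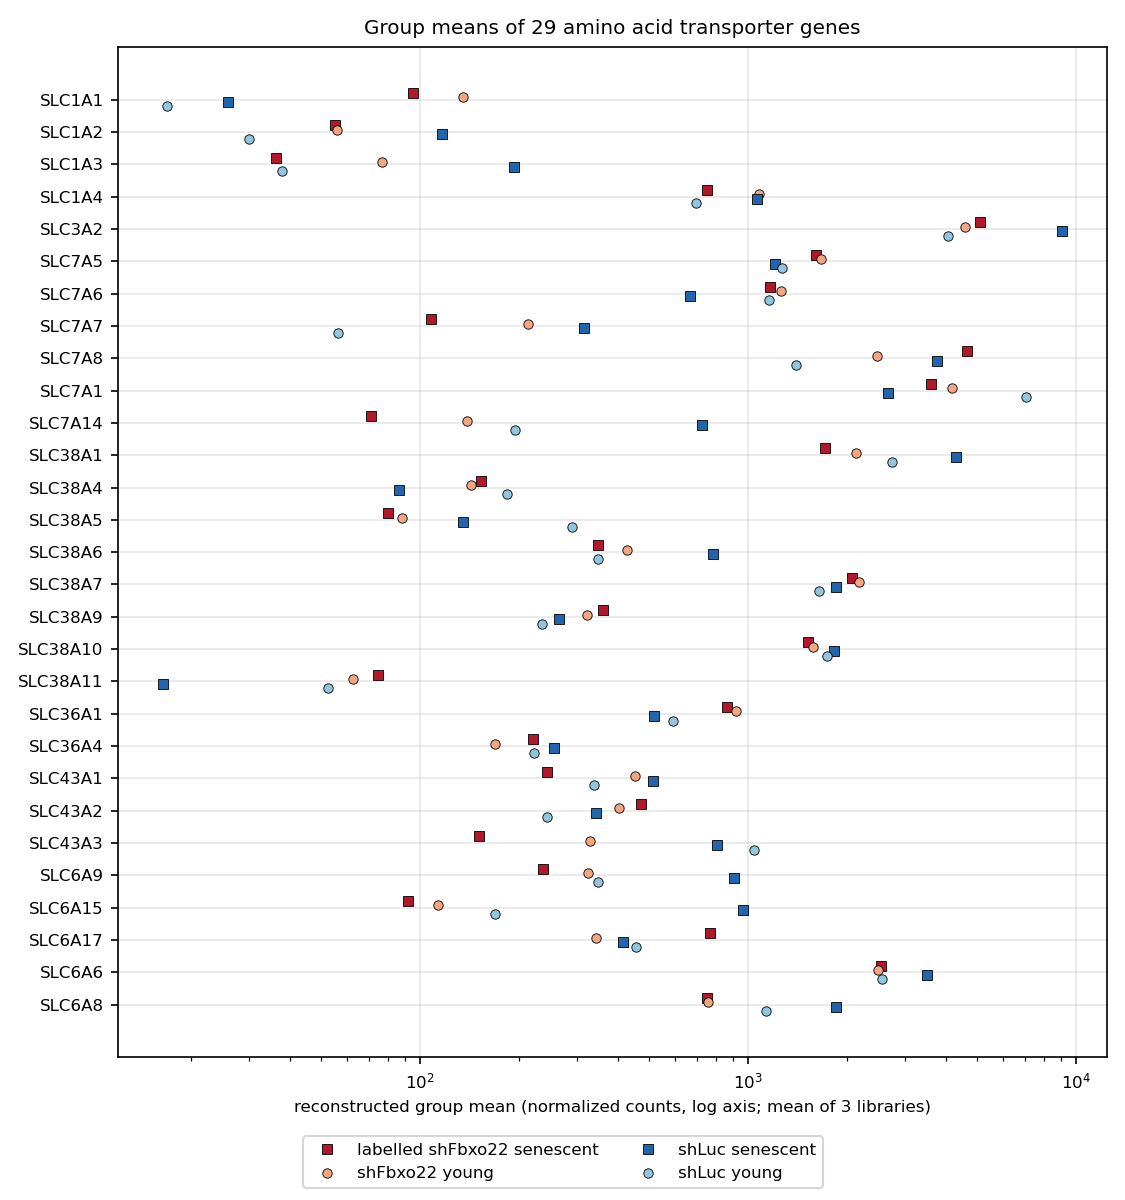
Reconstructed group means of the 29 more abundant transporter genes (normalized counts, log axis), ordered by role. Each symbol is the mean of 3 libraries without an error bar, and symbols of a gene are set slightly apart so that none is hidden. For SLC1A3, SLC7A14, SLC6A15 and SLC6A9 the shLuc senescent mean lies to the right of the other groups, while for SLC38A11 it lies to the left.

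Levels over the 4 groups took a few shapes, given here as reconstructed means without a test, in the order of the libraries labelled shFbxo22 senescent, shFbxo22 young, shLuc senescent and shLuc young. In one shape the shLuc senescent group stood above the other groups. The glycine carrier SLC6A9 was at 236, 324, 906 and 349 normalized counts, and the creatine carrier SLC6A8 at 747, 757, 1847 and 1131. SLC38A6, an SLC38 family member, was at 349, 428, 784 and 349.6. In the opposite shape that group stood lowest: SLC38A4, an SLC38 carrier of neutral amino acids, was at 153, 143, 86.1 and 184, and SLC7A6 at 1163, 1259, 666 and 1155. In another, both groups of one hairpin lay on one side. SLC1A1 was at 95.03, 135, 25.9 and 16.9, higher under shFbxo22 in both states, and SLC43A3 at 151, 329, 805 and 1039, lower in both. SLC36A1, the lysosomal exporter, was at 861, 920.2, 516 and 592. SLC7A1 stood highest in shLuc young cells, at 3620.1, 4189, 2678 and 7055. SLC36A4, an SLC36 carrier of proline and tryptophan, was at 221, 169, 256 and 222 and was called in none of the 4 comparisons.

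Promoter sequence was read for 42 of the 56 members from RefSeq (GRCh38.p14), as windows from 250 bases before to 50 bases after each annotated start. The CARE core TGATGNAA, sought on both strands, occurred in a window of 5 members: SLC1A3, SLC1A4, SLC3A2, SLC7A1 and SLC38A1. It occurred in 4.46% of the 27305 genes with such windows. All CARE matches found are shown, whatever the results of the gene. Each line reads 5′ to 3′ on the gene's strand, and capitals mark the match.
SLC1A3 (chr5:36596353-36596390, plus strand): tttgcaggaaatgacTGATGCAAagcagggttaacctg
SLC1A4 (chr2:64989377-64989414, plus strand): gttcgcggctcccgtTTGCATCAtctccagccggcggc
SLC3A2 (chr11:62881721-62881748, plus strand): aatgtgcaggactccTTACATCAgctcc
SLC7A1 (chr13:29595659-29595696, minus strand): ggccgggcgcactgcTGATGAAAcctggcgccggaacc
SLC38A1 (chr12:46266498-46266535, minus strand): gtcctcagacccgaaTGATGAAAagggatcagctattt
The E-box CACGTG, the core bound by MYC and by the lysosomal regulators TFEB and TFE3, occurred in 9 of the 42 members and in 8.77% of all genes with windows. SLC36A1, whose product exports amino acids from the lysosome, holds it at 2 places in one window.
SLC36A1 (chr5:151447545-151447615, plus strand): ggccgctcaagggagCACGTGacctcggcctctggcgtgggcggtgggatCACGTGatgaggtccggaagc
A match describes the letters only, and binding was not measured.

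Control cells made senescent by radiation had higher transcripts of the glutamate carriers SLC1A2 and SLC1A3, of the heavy chain SLC3A2 and its light chains SLC7A7 and SLC7A8, and of the sodium-coupled carriers SLC38A1 and SLC38A6. Lower transcripts were those of the arginine carrier SLC7A1 and of SLC38A4, SLC38A5 and SLC38A11. Of 34 tested members 15 rose and 6 fell in the authors' deposited table, 61.8% in all. Over all 21889 tested genes 42.6% were called, 21.2% higher and 21.3% lower in senescent cells. Among the 13369 genes that met the same abundance conditions as the 29 members, 59.7% were called, against 72.4% (21) of the 29. The members' median log2 fold change was 0.48, against -0.003 over all tested genes.

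Of the glutamate carriers, SLC1A3 (GLAST) averaged 193 normalized counts in senescent and 37.9 in young shLuc libraries, and SLC1A2 (GLT-1) 117 in senescent and 30.1 in young ones. Their log2 fold changes in the authors' deposited table were 2.35 ± 0.22 for SLC1A3 and 1.95 ± 0.26 for SLC1A2 (SE; Wald test, adjusted p = 8.96e-25 and 7.69e-13). SLC1A1, the neuronal and epithelial glutamate carrier, did not pass, at 0.66 ± 0.42 in the authors' deposited table. SLC1A4, an exchanger of alanine, serine and cysteine, rose by 0.62 ± 0.10 in the authors' deposited table.

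SLC3A2 encodes the CD98 heavy chain that carries most SLC7 light chains to the membrane. Its mean was 9065 normalized counts in senescent and 4072 in young shLuc libraries, and the authors' deposited table gave a log2 fold change of 1.15 ± 0.09 (adjusted p = 1.03e-36). The light chains did not move together. SLC7A7, which exports cationic amino acids, averaged 316 in senescent and 56.2 in young shLuc libraries and rose by 2.50 ± 0.19 (log2) in the authors' deposited table. SLC7A8 (LAT2), a broad neutral exchanger, rose by 1.43 ± 0.09 in the authors' deposited table. SLC7A6, a close relative of SLC7A7, fell to 666 normalized counts in senescent cells, against 1155 in young ones, at -0.80 ± 0.10 (log2) in the authors' deposited table. Of the SLC7A6 exon bases, 53.0% also lie in the opposite-strand gene SLC7A6OS, and the sources used here do not say whether reads were counted by strand. SLC7A5 (LAT1), the leucine exchanger of dividing cells, was at -0.07 ± 0.11 in the authors' deposited table and did not pass (95% interval -0.29 to 0.14).

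Cationic and sodium-coupled carriers split. SLC7A1, the main arginine and lysine importer, averaged 2678 normalized counts in senescent and 7055 in young shLuc libraries, and the authors' deposited table gave -1.40 ± 0.08 on the log2 scale (adjusted p = 1.23e-63). SLC7A14, a lysosomal relative of the cationic carriers, averaged 722 in senescent and 195 in young shLuc libraries and rose by 1.88 ± 0.14 (log2) in the authors' deposited table. Of 9 tested SLC38 genes 2 rose and 3 fell, 55.6% in all. That share lies between the 42.6% of all tested genes and the 59.7% of those past the abundance floor. The count does not set the family apart. SLC38A6 rose by 1.16 ± 0.12 and SLC38A1, a glutamine and alanine importer, by 0.64 ± 0.09 (log2) in the authors' deposited table. SLC38A11 was at -1.66 ± 0.35, SLC38A5 at -1.11 ± 0.16 and SLC38A4 at -1.09 ± 0.21 in the authors' deposited table, all past the test. The lysosomal carriers SLC38A7, SLC38A9 and SLC36A1 lay between -0.20 and 0.17 in the authors' deposited table and did not pass.

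Among SLC6 genes, SLC6A15, a carrier of branched-chain amino acids and proline, averaged 966 normalized counts in senescent and 169 in young shLuc libraries. The authors' deposited table gave it a log2 fold change of 2.50 ± 0.13 (adjusted p = 5.15e-75). SLC6A9, the glycine carrier GlyT1, rose by 1.37 ± 0.12, SLC6A8, the creatine carrier, by 0.70 ± 0.10, and SLC6A6, the taurine carrier, by 0.46 ± 0.09 in the authors' deposited table. SLC43A1 and SLC43A2 rose by 0.60 ± 0.13 and 0.50 ± 0.16, and SLC43A3, a relative with a nucleobase substrate, fell by 0.37 ± 0.11 on the log2 scale in the authors' deposited table.

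In the libraries labelled shFbxo22, senescent cells had higher SLC7A8 and SLC6A17 and lower SLC1A3, SLC6A9, SLC7A7 and SLC43A1 than young cells. Of 34 tested members 3 rose and 9 fell in the authors' deposited table, 35.3% in all. Over all 18758 tested genes 17.7% were called, 8.16% higher and 9.57% lower. Of the 29 members 34.5% (10) were called, against 22.8% of genes past the same abundance floor. The median log2 fold change of the tested members was -0.09, against 0.001 over all tested genes. SLC7A8 rose here too, with 4653 normalized counts in the libraries labelled shFbxo22 senescent and 2474 in shFbxo22 young libraries, by 0.90 ± 0.09 (log2) in the authors' deposited table. SLC6A17, a synaptic vesicle carrier of neutral amino acids, averaged 765 in the libraries labelled shFbxo22 senescent and 343 in young ones and rose by 1.13 ± 0.13 (adjusted p = 3.2e-16) in the authors' deposited table. SLC6A4, the serotonin carrier, was also called, at 0.89 ± 0.33, from a base mean of 7.27 normalized counts in the authors' deposited table. Decreases were called for SLC1A3 at -1.02 ± 0.26, SLC7A7 at -0.96 ± 0.18, SLC7A14 at -0.94 ± 0.21, SLC43A1 at -0.88 ± 0.15 and SLC43A3 at -1.09 ± 0.16 in the authors' deposited table. Smaller ones were SLC1A4 at -0.53 ± 0.12, SLC6A9 at -0.45 ± 0.16 and SLC38A1 at -0.31 ± 0.10 in the authors' deposited table. SLC7A4, at few reads, was at -1.19 ± 0.30 in the authors' deposited table. Not past the test were SLC3A2 at 0.15 ± 0.09 and SLC7A1 at -0.21 ± 0.11 (adjusted p = 0.326 and 0.178, from the authors' deposited table).

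The senescence responses of the 2 hairpins were compared by their difference, the log2 fold change labelled shFbxo22 minus that of shLuc, over the root of the summed squared SE. These 2 tables share no library. Their fold changes were moderated towards 0 by unequal amounts, which enters the difference for genes with few reads. Of 33 tested members the difference was negative and past the test for 16, positive and past it for 6, together 66.7%. Over all 18598 tested genes 37% passed, 18.8% positive and 18.1% negative. Among the 29 members 75.9% (22) passed, against 46.4% of genes past the same abundance floor. The largest differences were those of SLC7A7 at -3.46 ± 0.26, SLC1A3 at -3.36 ± 0.34, SLC7A14 at -2.82 ± 0.25 and SLC6A15 at -2.80 ± 0.25 (normal z, adjusted p = 5.82e-38, 1.04e-21, 3.99e-27 and 2.09e-28). SLC1A2 was at -2.001 ± 0.36, SLC6A9 at -1.83 ± 0.20 and SLC3A2 at -1.004 ± 0.13. The 6 positive differences were SLC38A11 at 1.90 ± 0.42, SLC6A17 at 1.27 ± 0.19, SLC38A4 at 1.19 ± 0.28, SLC7A1 at 1.19 ± 0.13, SLC38A5 at 0.98 ± 0.27 and SLC7A6 at 0.68 ± 0.15. For SLC7A5 the difference was 0.02 ± 0.16 (95% interval -0.29 to 0.33), for SLC38A9 -0.02 ± 0.21 (-0.42 to 0.39) and for SLC36A1 0.10 ± 0.17 (-0.23 to 0.43), none past the test.

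Of the 15 members that rose in shLuc senescence, the difference was negative and past the test for 14, the exception being SLC43A2 at -0.28 ± 0.21. In the libraries labelled shFbxo22, 7 of these 15 fell and 1 (SLC7A8) rose. Among all 4498 genes that rose in shLuc senescence, 67.4% had such a negative difference, 13.5% fell in the libraries labelled shFbxo22 and 10.9% rose. Of the 6 members that fell in shLuc senescence, 5 had a positive difference past the test and none rose with the other hairpin. Among all 4533 genes that fell in shLuc senescence, 66.2% had such a positive difference and 8.41% rose in the libraries labelled shFbxo22. SLC43A3 had a negative difference of -0.72 ± 0.20. Genes chosen for a change in one table tend to differ from another table by that choice alone, so these shares describe the members and carry no test. Across the 29 members the log2 fold changes of both tables had a Pearson r of -0.34 and a Spearman rho of -0.33, and 12 had the same sign.

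**Figure D2:**
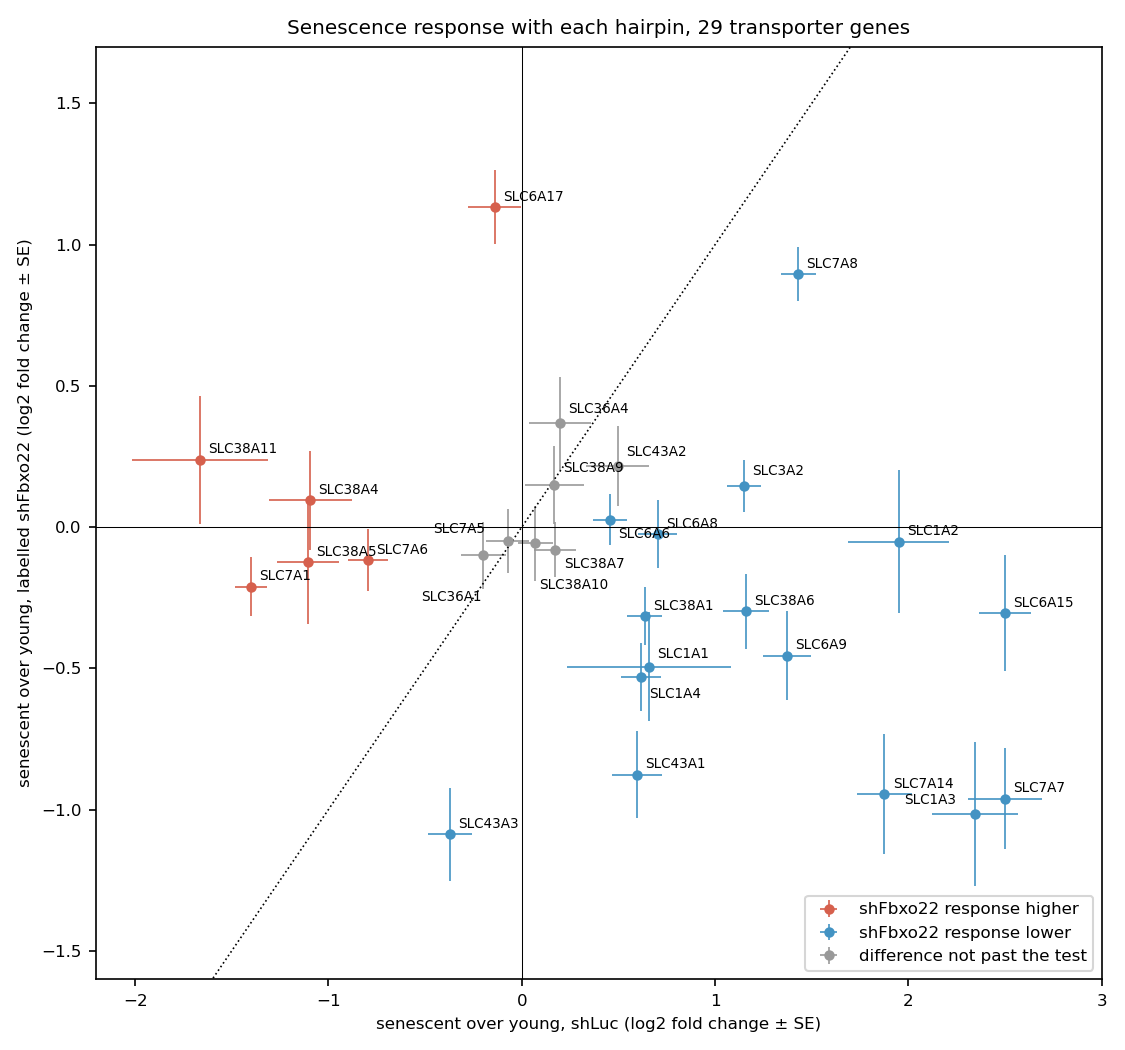
Senescent over young log2 fold change (± SE, from the authors' deposited tables) of 29 transporter genes with shLuc on the horizontal axis and in the libraries labelled shFbxo22 on the vertical axis. Colours mark whether the difference of both responses passed the test, and the dotted line marks equal responses. SLC7A7, SLC1A3 and SLC7A14 lie at the lower right, SLC7A8 near 1.43 and 0.90, and SLC7A1 and SLC38A11 at the left near the horizontal line.

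Young cells already differed between the hairpins, with more transcript of the glutamate carriers SLC1A1, SLC1A2 and SLC1A3, of SLC7A7 and of lysosomal SLC36A1 and SLC38A9 under shFbxo22, and less of SLC38A5, SLC43A3 and SLC7A1. Of 33 tested members 13 were higher and 8 lower in the authors' deposited table, 63.6% in all. Over all 20082 tested genes 35.9% were called, 18.7% higher and 17.3% lower with shFbxo22. Of the 29 members 69% (20) were called, against 46.8% of genes past the same abundance floor. This comparison shares the shLuc young libraries with the shLuc senescence table, and the senescent hairpin comparison shares the shLuc senescent ones with it. Likewise, the shFbxo22 senescence table shares the shFbxo22 young libraries with this comparison. It shares those labelled shFbxo22 senescent with the senescent hairpin comparison. SLC1A1 averaged 135 normalized counts in shFbxo22 young and 16.9 in shLuc young libraries, and the authors' deposited table gave a log2 fold change of 2.90 ± 0.28 (adjusted p = 6.13e-23). SLC7A7 averaged 213 in shFbxo22 young and 56.2 in shLuc young libraries and was higher by 1.91 ± 0.20 in the authors' deposited table. The glutamate carriers SLC1A3 and SLC1A2 were higher by 1.03 ± 0.27 and 0.87 ± 0.30, and SLC7A8 by 0.81 ± 0.10 in the authors' deposited table. SLC1A7, a retinal glutamate carrier at a base mean of 7.77, was at 0.39 ± 0.52 and did not pass, and SLC1A6 had no adjusted p in the authors' deposited table. The carriers SLC43A2, SLC1A4 and SLC36A1 were higher by between 0.62 and 0.71, and SLC38A9, SLC43A1, SLC38A7 and SLC7A5 by between 0.38 and 0.45 in the authors' deposited table. SLC38A9 is an arginine-sensing carrier of the lysosome. SLC7A4, at a base mean of 27.7 normalized counts, was higher by 2.80 ± 0.42 in the authors' deposited table.

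Lower with shFbxo22 in young cells were SLC38A5, a glutamine and histidine carrier, and SLC43A3. SLC38A5 averaged 87.9 normalized counts in shFbxo22 young and 290.4 in shLuc young libraries, at -1.71 ± 0.17 (log2) in the authors' deposited table. SLC43A3 averaged 329 in shFbxo22 young and 1039 in shLuc young libraries and was at -1.64 ± 0.14 in the authors' deposited table. SLC7A1 was at -0.76 ± 0.10, SLC6A8 at -0.58 ± 0.12, SLC6A15 at -0.56 ± 0.20, SLC7A14 at -0.46 ± 0.18, SLC6A17 at -0.43 ± 0.14 and SLC38A1 at -0.37 ± 0.10 in the authors' deposited table. SLC3A2 was at 0.16 ± 0.09, not past the test (adjusted p = 0.163, from the authors' deposited table).

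Senescent cells differed between the hairpins in 30 of 35 tested members, 13 of them higher and 17 lower where the label was shFbxo22, 85.7% in all in the authors' deposited table. Over all 22788 tested genes 40.1% were called, 20.2% higher and 19.9% lower. Of the 29 members 93.1% (27) were called, against 56.4% of genes past the same abundance floor. The median absolute log2 fold change of the 35 was 0.83, against 0.44 over all tested genes. The exceptions among the 29 were SLC36A4 at -0.21 ± 0.15 and SLC38A7 at 0.15 ± 0.09 in the authors' deposited table.

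SLC6A15 averaged 91.6 normalized counts in the libraries labelled shFbxo22 senescent and 966 in shLuc senescent libraries, 10.5-fold lower in the authors' deposited table (log2 fold change -3.39 ± 0.14, adjusted p = 3.42e-122). SLC7A14 averaged 70.6 in the libraries labelled shFbxo22 senescent and 722 in shLuc senescent libraries, 10.3-fold lower in the authors' deposited table. Next came SLC1A3 at -2.45 ± 0.24, SLC43A3 at -2.43 ± 0.13, SLC6A9 at -1.94 ± 0.14 and SLC7A7 at -1.57 ± 0.17 in the authors' deposited table. SLC38A1 at -1.33 ± 0.09, SLC6A8 at -1.31 ± 0.11, SLC38A6 at -1.17 ± 0.12, SLC43A1 at -1.10 ± 0.15 and SLC1A2 at -1.08 ± 0.24 were also lower in the authors' deposited table. The heavy chain SLC3A2 averaged 5096 in the libraries labelled shFbxo22 senescent and 9065 in shLuc senescent libraries, at -0.83 ± 0.09 in the authors' deposited table. SLC38A5, SLC1A4, SLC6A6 and SLC38A10 were lower too, between -0.75 and -0.27 (log2), and SLC6A16, at few reads, was at -1.13 ± 0.40 in the authors' deposited table.

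Higher in the libraries labelled shFbxo22 senescent were SLC38A11, with 74.4 normalized counts there and 16.5 in shLuc senescent libraries, at 2.15 ± 0.32 in the authors' deposited table, and SLC1A1 at 1.79 ± 0.28. SLC6A17 was at 0.88 ± 0.14, SLC38A4 at 0.83 ± 0.20, SLC7A6 at 0.80 ± 0.11 and SLC36A1 at 0.73 ± 0.11 in the authors' deposited table. SLC43A2, SLC38A9, SLC7A1, SLC7A5 and SLC7A8 were higher by between 0.30 and 0.45 (log2) in the authors' deposited table. SLC6A4 at 2.64 ± 0.63 and SLC7A4 at 1.55 ± 0.54 were called from base means of 6.27 and 10.1 normalized counts in the authors' deposited table. The members SLC7A5, SLC7A8, SLC36A1, SLC38A9, SLC43A2, SLC1A1 and SLC7A4 were higher with shFbxo22 in both states. SLC6A8, SLC6A15, SLC7A14, SLC38A1, SLC38A5 and SLC43A3 were lower in both. SLC1A2, SLC1A3, SLC1A4, SLC7A7 and SLC43A1 were higher in young and lower in senescent cells, and SLC7A1 and SLC6A17 the reverse. Across the 29 members, log2 fold changes of both states, which share no library, had a Pearson r of 0.31 and a Spearman rho of 0.21, and 19 had the same sign.

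**Figure D3:**
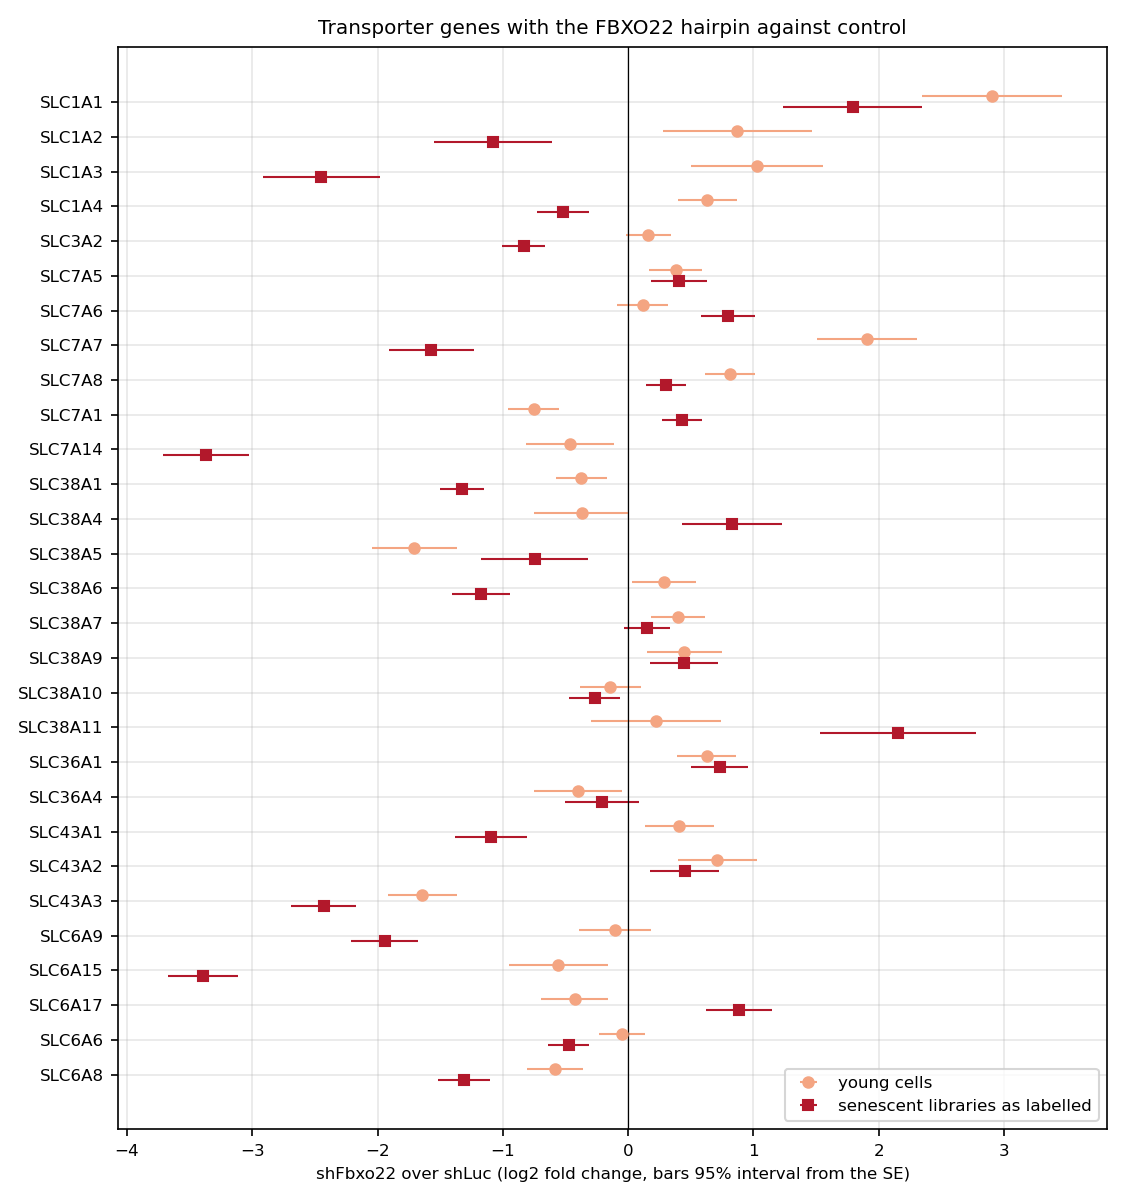
Log2 fold change of shFbxo22 over shLuc in young cells (circles) and in the senescent libraries as labelled (squares) for 29 transporter genes, from the authors' deposited tables, with 95% intervals from the SE. SLC7A5, SLC36A1 and SLC38A9 show overlapping intervals right of 0 in both states, while SLC7A7 and SLC1A3 lie right of 0 in young and left of it in senescent cells.

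Of the 5 members with a CARE match, SLC1A3, SLC1A4, SLC3A2 and SLC38A1 rose in shLuc senescence and SLC7A1 fell. The difference between the hairpins' responses was negative for the first 4 and positive for SLC7A1. Among all tested members, 15 of 34 rose in shLuc senescence and 16 of 33 had a negative difference past the test. Over all tested genes these shares were 21.2% and 18.1%. Whether the match or ATF4 has a part in these changes was not tested. Transcripts of the amino acid shortage response were examined as a list of 25 genes. Of these, 19 rose and 3 fell in shLuc senescence in the authors' deposited table, with a median log2 fold change of 0.71. There, 42.6% of all tested genes and 59.7% of those past the abundance floor were called. In the libraries labelled shFbxo22, 1 rose and 6 fell with senescence in the authors' deposited table, with a median of -0.09. Called in that comparison were 17.7% of all tested genes and 22.8% of those past the abundance floor. The difference between hairpins was negative and past the test for 18 of the listed genes and positive and past it for 3. It passed for 37% of all tested genes and 46.4% of those past the abundance floor. ATF4 itself rose by 0.94 ± 0.11 in shLuc senescence in the authors' deposited table, DDIT3 (CHOP) by 1.95 ± 0.11 and the pseudokinase gene TRIB3 by 2.37 ± 0.09. CHAC1, which degrades glutathione, differed between the hairpins' responses by -0.23 ± 0.21, not past the test. This list was chosen with earlier results of these data known, and its counts are not independent of them.

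Amino acid carriers outside the 7 families were split in shLuc senescence, with 6 of 15 tested genes higher and 5 lower in the authors' deposited table. Called there were 42.6% of all tested genes and 59.7% of those past the abundance floor. The difference between hairpins was positive and past the test for 3 of the 15 and negative for 7. It passed for 37% of all tested genes and 46.4% of those past the abundance floor. CTNS, the lysosomal cystine exporter, rose by 1.38 ± 0.13, and SLC15A3, a lysosomal histidine and peptide carrier, by 0.94 ± 0.14 in the authors' deposited table. In the libraries labelled shFbxo22, both fell with senescence, CTNS at -0.35 ± 0.12 and SLC15A3 at -0.69 ± 0.17 in the authors' deposited table. The opposite course was that of SLC25A15, the mitochondrial ornithine carrier, which fell at -1.48 ± 0.21 in shLuc senescence and rose by 0.77 ± 0.17 in the libraries labelled shFbxo22 in the authors' deposited table. Its difference was 2.25 ± 0.27. SFXN1, a mitochondrial serine carrier, fell at -0.78 ± 0.09 in shLuc senescence in the authors' deposited table, with a difference of 0.88 ± 0.14. Of 35 genes of amino acid sensing by mTORC1, the kinase complex that couples amino acid supply to growth, 12 rose and 7 fell in shLuc senescence in the authors' deposited table. That share lies between the 42.6% of all tested genes and the 59.7% of those past the abundance floor, so the count does not set the list apart. The list's median log2 fold change in shLuc senescence was 0.10, and the genes named next do not stand for the list. RRAGD, a Rag GTPase subunit, rose by 4.22 ± 0.28 and FNIP2, a folliculin partner, by 1.85 ± 0.09 in the authors' deposited table. Their changes in the libraries labelled shFbxo22 were 0.13 ± 0.20 and -0.10 ± 0.10 in the authors' deposited table, neither past the test. SESN1, a sestrin gene and p53 target, rose by 1.88 ± 0.11 in the libraries labelled shFbxo22 and by 0.48 ± 0.18 in shLuc libraries with senescence in the authors' deposited table.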

How the data were processed

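Total RNA libraries (Ion Total RNA-Seq kit, per the labels' protocols) were compared by the authors in 4 tables of 2 groups each. Per the submitters' processing notes, the tools were R 3.2.2, DESeq2 1.14.1, STAR 2.3.0 and Bowtie2 2.0.0 and the builds hg19 and GRCh37, with no roles given. The authors deposited a base mean (a normalized count signal), a log2 fold change with its SE, a Wald score, and a p-value with its adjusted p-value, per the file headers. Fold changes were moderated towards 0: the largest SE was 0.333 in the shFbxo22 senescence table and 0.697 in the shLuc one, so changes of genes with few reads are understated by unequal amounts.

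The sign of each table was settled from the base means. Of 16 sign choices, 1 made both estimates of each group mean meet (mean absolute log2 gap 0.0092 over 9109 genes with base means of at least 200, against 0.131 for the next). The shFbxo22 senescence table and the senescent hairpin table were turned by it, so their printed values have the opposite sign in the deposit. The difference of responses was tested with a normal z, adjusted over 18598 genes by Benjamini-Hochberg. It takes in the moderated fold changes of both senescence tables, and how much the unequal moderation adds to it was not tested. Rows holding dates (28 per table) were left out. Members named one by one had an adjusted p in all 4 tables and an average base mean of at least 50; others were named where called. Members and lists were chosen with earlier results of these data known. Whether a group's libraries stem from different cultures is not stated in the labels, and the spread behind the p-values may be technical. Exons of 11 of the 29 members overlap another gene's in GENCODE release 29. The alternatives changed the genes adjusted together, a base mean minimum, the centring of fold changes, the threshold and the tables used for the difference. Python 3.11.15, pandas 2.3.3, scipy 1.17.1 and matplotlib 3.10.9 were used.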

Additional observations from a re-analysis of the deposited data

Results flagged for a closer look

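For 22 transporter genes the senescence response differed between the hairpins by the test of the difference itself, given here as the log2 response in the libraries labelled shFbxo22 minus that in shLuc libraries. The glutamate carriers SLC1A3, SLC1A2 and SLC1A1 differed by -3.36, -2.001 and -1.15, and the exchanger SLC1A4 by -1.15. The heavy chain SLC3A2 differed by -1.004, its light chains SLC7A7 and SLC7A8 by -3.46 and -0.53, and SLC7A14 by -2.82. Of the SLC6 genes, SLC6A15, SLC6A9, SLC6A8 and SLC6A6 differed by -2.80, -1.83, -0.73 and -0.43. SLC43A1 and SLC43A3 differed by -1.47 and -0.72, and SLC38A6 and SLC38A1 by -1.46 and -0.95.

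In the other direction, SLC38A11, SLC38A4 and SLC38A5 differed by 1.90, 1.19 and 0.98. SLC6A17 differed by 1.27, the arginine importer SLC7A1 by 1.19 and SLC7A6 by 0.68. In the libraries labelled shFbxo22 senescent, FBXO22 went against the label with the table signs used here, and the part of that in these differences was not tested.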

How the results depend on the processing

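Every count of members called in a direction stayed within 1.5 times its value under each alternative run: adjustment over every row, a base mean of at least 50, centred fold changes, a threshold of 0.01, and the difference taken from the hairpin tables. That last gave 6 positive and 16 negative members again, and its values lay within 0.144 (log2) of the others over 31 members. It is the same contrast of the same 12 libraries, and the table signs were chosen so that the tables meet. Its closeness was therefore set in advance and is no independent check. Of 641 member results, 624 kept their side of the threshold, 15 lost it, 2 gained it and no call changed sign. A result that an alternative left without an adjusted p was not among the 641 and not counted as lost. The base mean minimum took out called results in this way. Among them were SLC38A11 in shLuc senescence (base mean 33.8), its difference, and SLC1A2 for the young hairpins (42.7). At 0.01 the losses included SLC38A1 and SLC6A9 for senescence in the libraries labelled shFbxo22, SLC1A2, SLC6A15 and SLC38A9 for the young hairpins, and the SLC1A1 difference. Adjusted over every row, the SLC1A1 difference, SLC7A14 for the young hairpins and SLC6A4 for senescence in the libraries labelled shFbxo22 were lost. No paired analysis was possible because per-library values are not part of these tables, and leaving out replicates was not run for the same reason. Depth per library is unknown, and 21 members with few or no reads had no adjusted p.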
